A study of Homo sapiens with 4 samples.

Results

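The genes described here are the E2F transcription factors E2F1 to E2F8 and the RB pocket proteins RB1 and RBL1. They were taken by gene symbol, and all 10 were found among the 29833 genes of the expression table. Reh-6-MPR is a subline of Reh, a widely used human line of B-cell acute lymphoblastic leukemia (B-ALL), that carries acquired resistance to 6-mercaptopurine (6-MP), and its genotype is given as WT in the labels. Cells of this single resistant line were kept for 48 h in vehicle (PBS), in histidine at 4 mM, in 6-MP at 1.0 μg/mL, or in both agents, called the combined treatment below. Poly(A) RNA of each treatment gave 1 library, so no difference has a replicate check, no p-value is given, and every interval compares libraries rather than treatments.

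E2F proteins bind promoters of cell cycle genes, mostly as heterodimers with DP proteins. Pocket proteins hold E2F proteins in complexes that keep target genes silent in resting cells, and phosphorylation of the pocket proteins by cyclin-dependent kinases releases E2F in late G1 so that genes of DNA replication are transcribed. E2F1, E2F2 and E2F3 are known as activators that pair with RB1, E2F4 and E2F5 as repressors that pair with pocket proteins such as RBL1, and E2F6, E2F7 and E2F8 as repressors that need no pocket protein. E2F1 is also known for driving transcription of genes of apoptosis, and E2F7 and E2F8 bind without a DP partner and repress E2F1 and its targets.

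Several of these genes are themselves controlled by E2F proteins, so the bases before their starts are shown here for the genes set against each other in the results. Windows of 250 bases before the start were taken from the RefSeq promoters of GRCh38.p14 and searched on both strands for 4 E2F words of 7 letters. These were TTTCCCG, found in 3.66% of all windows of this kind, the word TTTCGCG, found in 1.10% of them, the word TTTGCCG, found in 1.33%, and the word TTTGGCG, found in 1.59%. E2F1 is shown because it had the highest level of the family. The other choices were made among the 9 genes with enough reads. E2F6 is shown because its level differed least between libraries. E2F7 is shown because it was furthest above vehicle with the combined treatment, and E2F4 because it was furthest below. Capitals mark the words found, in the direction of transcription. The E2F6 window was shortened to the 234 bases before the start given in the deposited table. The windows lie at chr20:33686386-33686635 on the minus strand (E2F1), chr2:11466178-11466411 on the minus strand (E2F6), chr12:77065570-77065819 on the minus strand (E2F7) and chr16:67191905-67192154 on the plus strand (E2F4).
E2F1: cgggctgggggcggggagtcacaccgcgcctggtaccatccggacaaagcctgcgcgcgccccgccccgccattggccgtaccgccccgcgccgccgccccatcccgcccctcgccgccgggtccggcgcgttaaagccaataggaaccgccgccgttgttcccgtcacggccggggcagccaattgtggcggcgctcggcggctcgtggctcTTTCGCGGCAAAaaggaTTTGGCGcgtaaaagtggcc
E2F6: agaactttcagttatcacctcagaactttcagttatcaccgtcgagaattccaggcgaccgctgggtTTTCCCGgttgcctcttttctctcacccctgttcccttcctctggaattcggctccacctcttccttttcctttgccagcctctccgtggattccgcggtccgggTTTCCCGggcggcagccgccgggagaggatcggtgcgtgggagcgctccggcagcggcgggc
E2F7: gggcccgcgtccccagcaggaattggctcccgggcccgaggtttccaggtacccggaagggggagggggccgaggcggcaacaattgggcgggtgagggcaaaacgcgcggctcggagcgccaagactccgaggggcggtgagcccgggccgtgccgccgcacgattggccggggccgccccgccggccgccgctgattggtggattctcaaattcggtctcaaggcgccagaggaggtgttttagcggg
E2F4: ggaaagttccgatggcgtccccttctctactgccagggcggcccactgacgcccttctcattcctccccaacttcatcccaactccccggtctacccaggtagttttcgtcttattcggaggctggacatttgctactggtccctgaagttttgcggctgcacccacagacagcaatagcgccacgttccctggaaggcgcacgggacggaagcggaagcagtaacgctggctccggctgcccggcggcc
The E2F1 window held 3 words within 37 bases of the start, with TTTCGCG on the plus strand and the word TTTGCCG on the minus strand overlapping by their ends. Both words of E2F6 were TTTCCCG, beginning 183 and 78 bases before the RefSeq start. Neither E2F7 nor E2F4 held any of the 4 words in these bases.

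Windows were matched for 8 of the 10 genes, and 5 of the 8 held at least 2 E2F words, namely E2F1, E2F2, E2F3, E2F6 and RBL1. Counted by window, 5 of 9 (55.6%) held at least 2. Over all 35116 RefSeq windows of this length, 7.33% held at least 1 word and 0.496% at least 2. In E2F2 the word TTTCGCG began 57 bases before the start and the word TTTGGCG began 42 bases before it. RBL1 held the same pair closer to its start, beginning 26 and 16 bases before it. In E2F3 a TTTCCCG on the minus strand began 52 bases, and a word TTTCGCG on the plus strand 39 bases, before the first of its 2 listed starts, and the second start had no word. The RB1 window belonged to a start inside the gene and held none. These matches describe letters only, and nothing follows from their absence in this window about the binding of a factor.

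Levels are given as FPKM, reads scaled by gene length and by the size of the library, as deposited. Whole reads behind the FPKM values were recovered, and the library totals were between 12899122 reads (combined treatment) and 15486376 reads (histidine). Exact 95% intervals on these reads cover counting error only, and reads without molecular identifiers may hold PCR copies. Fold changes are differences of log2(FPKM + 1), which understates changes of genes with low FPKM, and a gene counted as tested had a mean FPKM of at least 1, which 12750 genes had. Of the 10 genes, 9 were tested and E2F2 was not. A log2 fold change of at least 1 in either direction counted as past the threshold. The library of the combined treatment was shifted as a whole, with a median log2 fold change over all tested genes of 0.13 against vehicle, 0.11 against histidine and 0.13 against 6-MP, so values are also given relative to that median.

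The libraries held RNA of B-lineage genes, with 9 marker genes analysed, none of them at 0 in any library, and a summed level between 1535 and 1628 FPKM. Of 6 genes of other blood and stromal cells, the summed level was 29.1 FPKM with vehicle, 31.7 with histidine, 27.6 with 6-MP and 44.5 under the combined treatment, and MPO, a granule enzyme of myeloid cells, gave most of it. MPO was at 27.7, 30.5, 26.4 and 41.0 FPKM in the same order, while HBB was at 0 in all libraries except that of histidine, and CD14 was at most 0.170 FPKM. LYZ, the lysozyme of myeloid cells, was at 0.324, 0.0375, 0.113 and 1.39 FPKM, from 8, 1, 3 and 31 reads. COL1A1, a collagen of stromal cells, was at 0.869, 1.05, 1.03 and 2.04 FPKM, so the combined treatment was 2.35 times vehicle (interval of the log2 read ratio 0.90 to 1.57). MPO, LYZ and COL1A1 were thus each highest in the library of the combined treatment. The part of other cells in the values below was not tested. In bulk RNA, fewer cells that express a gene and less RNA per cell cannot be told apart.

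E2F1 was the most abundant gene of the family in each library. It lies on chromosome 20 of GRCh38 from 33675477 to 33686385 on the minus strand. Its level was 62.2 FPKM with vehicle, 67.3 with histidine, 59.2 with 6-MP and 73.3 under the combined treatment, from 2394, 2804, 2445 and 2544 reads. The library of the combined treatment was the highest and that of 6-MP the lowest, and vehicle already stood at percentile 95.5 of the tested genes. Against vehicle the combined treatment was 17.9% higher, a log2 fold change of 0.23, and the log2 read ratio was 0.24 (95% interval 0.16 to 0.32). Relative to the median of all tested genes this difference was 0.10, and 5089 tested genes had a higher log2 fold change. With histidine alone E2F1 was 8.28% above vehicle, also outside the counting error (interval 0.035 to 0.19). After scaling by the median ratio, E2F1 was 0.080 above vehicle on the log2 scale and -0.0088 against histidine, so its direction against histidine depends on the scaling.

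E2F3, the other well expressed activator, was lower with the combined treatment. It lies on chromosome 6 from 20401879 to 20493714 on the plus strand. Its level was 29.2 FPKM with vehicle, 28.5 with histidine, 28.7 with 6-MP and 26.3 under the combined treatment. Histidine was 2.39%, 6-MP 1.61% and the combined treatment 9.69% below vehicle. The log2 read ratio of the combined treatment was below 0 against vehicle (interval -0.24 to -0.056), histidine (-0.20 to -0.022) and 6-MP (-0.21 to -0.034). Its log2 fold changes of -0.14, -0.11 and -0.12 were -0.27, -0.22 and -0.25 relative to the median of all tested genes. E2F2, an activator on chromosome 1 from 23506438 to 23531233, was close to undetected and was not tested. It had 19 reads with vehicle, 34 with histidine, 26 with 6-MP and 10 under the combined treatment, or 0.243, 0.402, 0.310 and 0.142 FPKM. The combined treatment was the lowest of the 4 libraries. Its read ratio to histidine was below 0 (interval -2.68 to -0.45), that to 6-MP barely so (-2.34 to -0.028), and that to vehicle included 0 (-2.04 to 0.40).

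E2F4, the repressor that is usually the main partner of RBL1 and RBL2, was lower with the combined treatment than in any other library. It lies on chromosome 16 from 67192155 to 67198918. Its level was 34.9 FPKM with vehicle, 36.3 with histidine, 33.9 with 6-MP and 25.4 under the combined treatment, from 1799, 2021, 1871 and 1179 reads. Both monotherapies lay close to vehicle, and the combined treatment was 27.3% below vehicle, 30.0% below histidine and 25.1% below 6-MP. The log2 fold changes were -0.44, -0.50 and -0.40, and -0.58, -0.61 and -0.53 relative to the median of all tested genes. None reached the threshold, and the interval of the read ratio to vehicle was -0.57 to -0.35.

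E2F5, the second repressor of this class, was low in all libraries and its differences were not detectable at this depth. It lies on chromosome 8 from 85177154 to 85217158. Its level was 2.01 FPKM with vehicle, 2.15 with histidine, 2.17 with 6-MP and 1.96 under the combined treatment, from 173, 200, 200 and 152 reads. No library stood apart, and the interval of the combined treatment against vehicle was -0.36 to 0.29. Relative to the median of all tested genes its log2 fold change was -0.16. E2F5 shares 969 exon bases in GENCODE 29 with C8orf59 on the other strand, which had 84 to 115 reads, and the strand setting of the counting is not given in the sources used here.

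E2F6 was the gene of the family whose level differed least. It is a repressor known as part of PRC1.6, a Polycomb complex that silences germ-cell genes, and lies on chromosome 2 from 11444375 to 11466177 on the minus strand. Its level was 8.81 FPKM with vehicle, 9.11 with histidine, 9.55 with 6-MP and 9.53 under the combined treatment, from 513, 574, 596 and 500 reads. The highest library was 1.08 times the lowest, the smallest such range of the 10 genes. The ranges of E2F5, E2F3 and RBL1 were close to it, at 1.11, 1.11 and 1.12. Whether the range of E2F6 was smaller beyond counting error was not tested. Intervals of the read ratio included 0 in all 5 comparisons, with -0.067 to 0.29 for the combined treatment against vehicle. Its log2 fold change was 0.10 against vehicle, 0.058 against histidine and -0.0028 against 6-MP, which is -0.030, -0.049 and -0.13 relative to the median of all tested genes. These signs are not stable, since the median-ratio scaling gave -0.039 against vehicle and -0.061 against histidine, and scaling to the same total gave 0.017 against 6-MP.

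E2F7 was the gene of the family furthest above vehicle with the combined treatment, and the only one past the threshold. It encodes an atypical repressor and lies on chromosome 12 from 77021248 to 77065569 on the minus strand. Its level was 11.3 FPKM with vehicle, 11.7 with histidine, 10.7 with 6-MP and 25.7 under the combined treatment, from 1016, 1140, 1032 and 2085 reads. Histidine was 3.73% above and 6-MP 5.22% below vehicle, and the combined treatment was 2.28 times vehicle, 2.20 times histidine and 2.40 times 6-MP. The log2 fold changes were 1.12, 1.07 and 1.19, with intervals of the read ratio of 1.08 to 1.30, 1.03 to 1.24 and 1.16 to 1.37. Against vehicle, 473 tested genes had a higher log2 fold change. Relative to the median of all tested genes the values were 0.99, 0.96 and 1.06. With the median-ratio scaling they were 0.97, 0.95 and 1.05, so the call against vehicle and against histidine depends on the scaling while the direction does not.

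E2F8, the other atypical repressor, differed in the same direction by a smaller amount. It lies on chromosome 11 from 19224063 to 19241620 on the minus strand. Its level was 15.0 FPKM with vehicle, 15.8 with histidine, 14.6 with 6-MP and 25.0 under the combined treatment, from 886, 1009, 926 and 1333 reads. Only the combined treatment stood apart, at 1.67 times vehicle, 1.59 times histidine and 1.71 times 6-MP. The log2 fold changes were 0.70, 0.63 and 0.74, under the threshold, and the interval against vehicle was 0.62 to 0.86. Relative to the median of all tested genes they were 0.57, 0.53 and 0.61.

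RB1, the retinoblastoma protein gene, was lower than vehicle with histidine alone and higher with the combined treatment. It lies on chromosome 13 from 48303744 to 48599436 on the plus strand. Its level was 28.8 FPKM with vehicle, 24.2 with histidine, 27.3 with 6-MP and 37.9 under the combined treatment, from 2650, 2411, 2694 and 3144 reads. Histidine gave the lowest library, 15.9% below vehicle (log2 fold change -0.24, interval -0.33 to -0.17), and the combined treatment the highest, 31.7% above vehicle (log2 fold change 0.39, interval 0.32 to 0.47). Against histidine alone the combined treatment was 1.57 times as high, a log2 fold change of 0.63, and against 6-MP alone the log2 fold change was 0.46. Relative to the median of all tested genes the combined treatment was at 0.25 against vehicle, 0.52 against histidine and 0.33 against 6-MP. RBL1, which encodes the pocket protein p107 and is itself an E2F target, lies on chromosome 20 from 36996349 to 37095997 on the minus strand. Its level was 12.8 FPKM with vehicle, 11.7 with histidine, 12.4 with 6-MP and 11.4 under the combined treatment. It was 8.91% below vehicle with histidine and 11.0% below with the combined treatment, both outside the counting error (intervals -0.26 to -0.012 and -0.30 to -0.038). Against histidine and 6-MP the intervals of the combined treatment included 0, while with the median-ratio scaling both lay below 0. Relative to the median of all tested genes the log2 fold changes of RBL1 were -0.29 against vehicle, -0.14 against histidine and -0.25 against 6-MP.

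**Figure D1:**
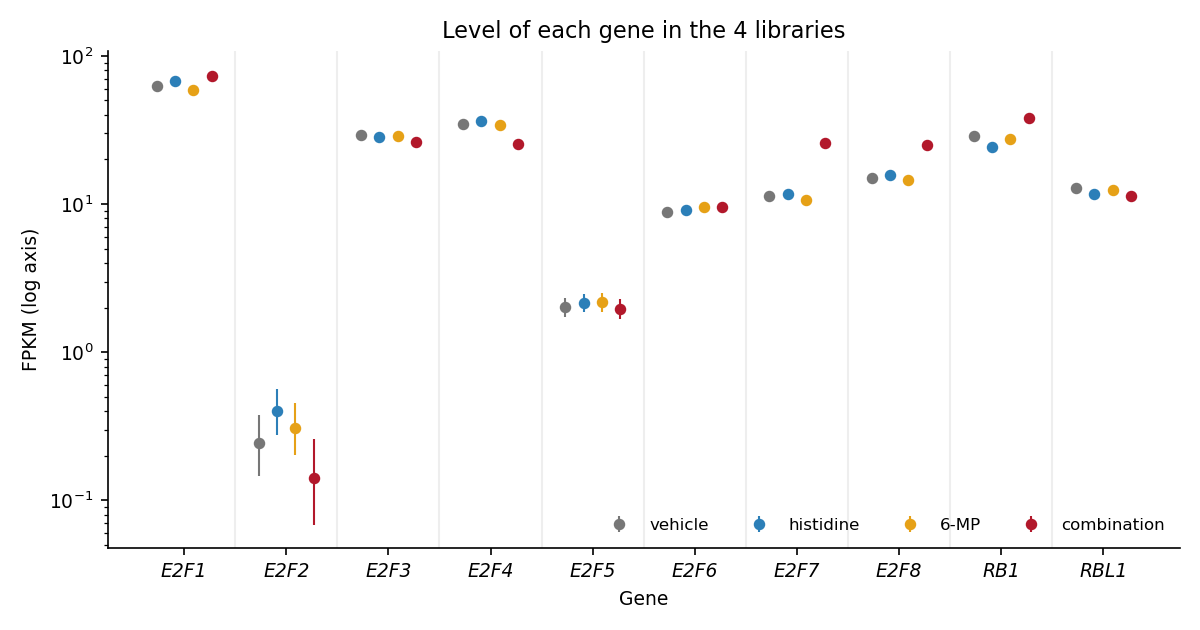
Level of each gene in the 4 libraries, with FPKM on a log axis. Points are single libraries and bars are 95% counting intervals, most of them smaller than the point. E2F7 (25.7 FPKM) and E2F8 (25.0 FPKM) stand apart in the combined treatment, E2F4 is lowest there, and E2F2 lies below 1 FPKM throughout.

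Few of the 9 tested genes differed between a monotherapy and vehicle. With histidine alone against vehicle, the interval of the read ratio lay above 0 for 1 gene (E2F1) and below 0 for 2 (RB1 and RBL1), where 12.9% of all tested genes lay above and 8.70% below. With 6-MP alone it included 0 for all 9 genes, and over all tested genes 9.98% lay above and 7.91% below. No gene of the family passed the fold threshold with either agent. Over all tested genes 0.800% were past it upward and 0.533% downward with histidine, and 0.463% and 0.722% with 6-MP.

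The combined treatment differed from vehicle beyond counting error in 7 of the 9 genes, 4 above (E2F1, E2F7, E2F8 and RB1) and 3 below (E2F3, E2F4 and RBL1). Over all tested genes 42.7% lay above and 20.8% below, so a library that differs in so many genes gives the count of 7 little weight. Against histidine the same 4 genes lay above and E2F3 and E2F4 below, beside 41.2% and 22.1% of all tested genes. Against 6-MP the names were the same 6, beside 42.2% and 21.2%. E2F7 was the 1 gene past the fold threshold upward in each of these comparisons, and 0 were past it downward. The shares of all tested genes past the threshold were 5.01% upward and 1.51% downward against vehicle, 4.15% and 1.40% against histidine, and 4.82% and 1.20% against 6-MP. Median-ratio scaling put 30.2% of all tested genes above and 30.7% below vehicle and moved the genes past the threshold from 639 higher and 193 lower to 472 and 272. Under it the genes of the family on each side of vehicle were the same 4 and 3. Against histidine it left 3 above, without E2F1, and 3 below, with RBL1 added, and against 6-MP it gave the 4 above and, with RBL1 added, 3 below.

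**Figure D2:**
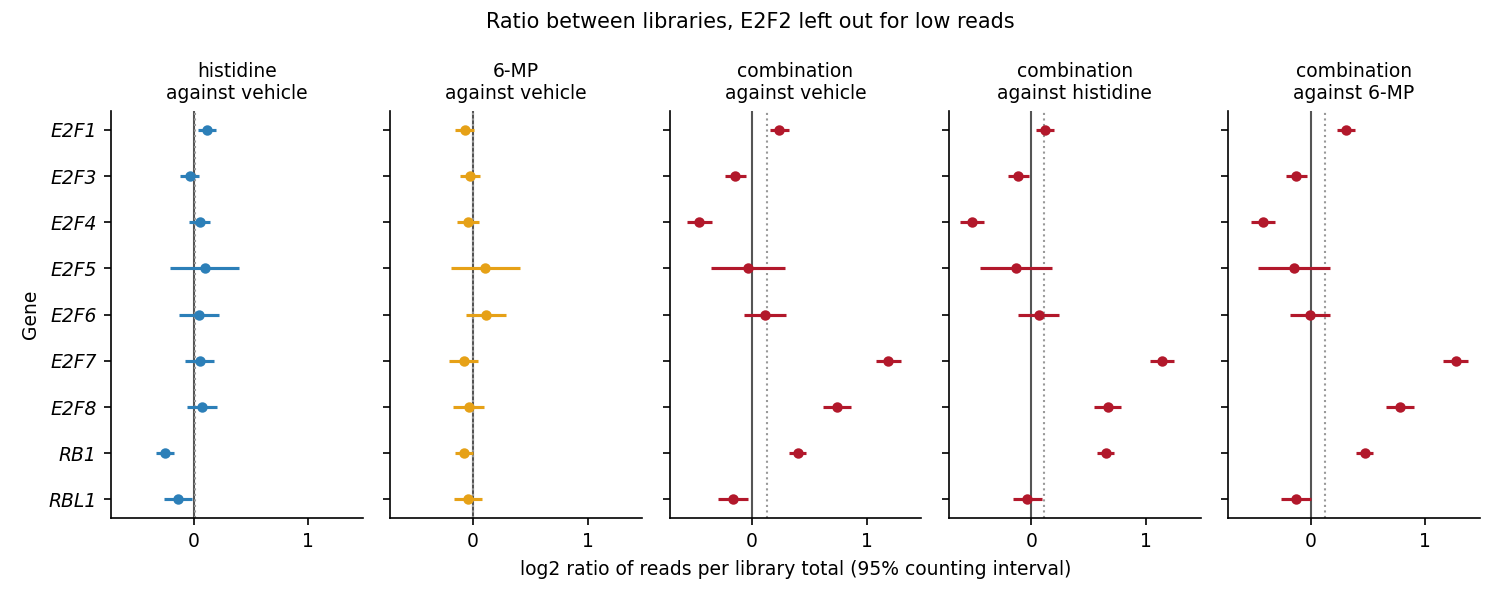
Log2 ratio of reads per library total between pairs of libraries (x axis) for the 9 tested genes (y axis), with 95% counting intervals. The solid line is 0 and the dotted line the median log2 fold change of all tested genes. E2F7 lies at 1.19, 1.13 and 1.26 in the 3 panels of the combined treatment, and with 6-MP alone each interval includes 0.

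Ratios between genes of the same library do not depend on the scaling between libraries. Set beside the other 9 genes, E2F1 moved from vehicle to the combined treatment more upward than E2F3, E2F4 and RBL1, and less than E2F7, E2F8 and RB1. The difference of log2 read ratios was 0.70 between E2F1 and E2F4 (interval 0.56 to 0.83) and -0.95 between E2F1 and E2F7 (-1.08 to -0.81). E2F6 stood in the same place, above E2F3, E2F4 and RBL1 and below E2F7, E2F8 and RB1. Between E2F1 and E2F6 the difference was 0.12 (-0.070 to 0.32), so a difference between these 2 genes was not detectable in that comparison. Against 6-MP the combined treatment had E2F1 above E2F6 by 0.31 (0.12 to 0.50), and in the other 3 comparisons the interval included 0. With 6-MP alone no gene differed from E2F1 beyond counting error, and 1, RB1, differed from E2F6. With histidine alone E2F1 moved more upward than E2F3, RB1 and RBL1.

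The makeup of the family was set side by side as shares of its summed level. The summed level of E2F1 to E2F8 was 163.6 FPKM with vehicle, 171.2 with histidine, 159.2 with 6-MP and 187.4 under the combined treatment. E2F7 and E2F8 together made up 16.0% of it with vehicle, 16.0% with histidine, 15.9% with 6-MP and 27.0% under the combined treatment. E2F4 and E2F5 made up 22.6%, 22.5%, 22.7% and 14.6% in the same order. The activators E2F1 to E2F3 stayed between 53.3% and 56.2%, and E2F1 alone between 37.2% and 39.3%. E2F3 was 17.8%, 16.6%, 18.0% and 14.1%, lowest with the combined treatment. E2F6 was 5.39%, 5.32%, 6.00% and 5.09%. Set against its atypical repressors, E2F1 was 2.37 times the sum of E2F7 and E2F8 with vehicle, 2.45 with histidine, 2.34 with 6-MP and 1.45 under the combined treatment.

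**Figure D3:**
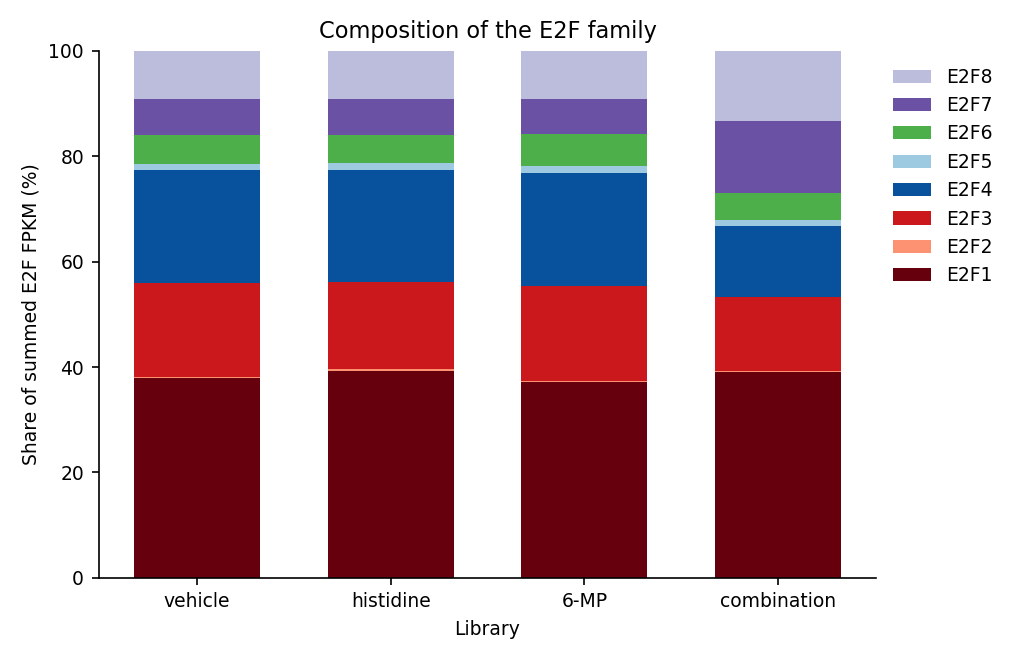
Share of each gene in the summed FPKM of E2F1 to E2F8 (y axis, percent) in each library (x axis), as stacked bars. The atypical repressors E2F7 and E2F8 take 27.0% in the combined treatment and about 16.0% in the other libraries, while the share of E2F1 stays between 37.2% and 39.3%.

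The order of the levels changed with these shifts. With vehicle it ran E2F1, E2F4, E2F3, RB1, E2F8, RBL1, E2F7, E2F6, E2F5 and E2F2, and of these neighbours E2F3 and RB1 did not differ beyond counting error. With histidine E2F7 and RBL1 did not differ, and with 6-MP E2F3 and RB1 did not. With the combined treatment RB1 took the second place, and E2F3, E2F7, E2F4 and E2F8 followed between 25.0 and 26.3 FPKM without a difference between neighbours.

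Both single agents left most of these genes near vehicle, so the value of the combined treatment was set against the sum of the single differences on the log2(FPKM + 1) scale. The departure from this sum was 1.14 for E2F7 (interval of the read ratio 1.05 to 1.37), 0.70 for RB1 (0.61 to 0.83) and 0.67 for E2F8 (0.52 to 0.88). It was 0.19 for E2F1 (0.081 to 0.31) and -0.46 for E2F4 (-0.61 to -0.33). Over all tested genes the median departure was 0.11, and 449 genes lay above E2F7. The intervals of E2F3, E2F5, E2F6 and RBL1 included 0. With 1 library in each cell of the layout, the interaction of the agents was not tested.

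Of the partners of the E2F proteins, none of the DP genes or RBL2 was past the threshold with the combined treatment against vehicle. Of all tested genes 5.01% were past it upward and 1.51% downward, so a count of 0 in so few genes carries little weight. TFDP1, the main DP partner, was at 46.5 FPKM with vehicle, 47.7 with histidine, 44.6 with 6-MP and 41.7 under the combined treatment, below vehicle beyond counting error (interval -0.24 to -0.071). TFDP2, a second DP protein, was at 45.9, 46.6, 49.6 and 49.8 FPKM, above vehicle with the combined treatment (interval 0.071 to 0.16). RBL2, the pocket protein p130, was at 10.0, 10.6, 10.5 and 10.1 FPKM, and its interval for the combined treatment against vehicle was -0.12 to 0.13. MuvB is the complex through which pocket proteins or MYBL2 and FOXM1 control cell cycle genes. Of the MuvB core and its activators, 6 of 7 genes were tested. None passed the threshold, which beside the same shares of all tested genes carries little weight. MYBL2, itself an E2F target, was at 102.3 FPKM with vehicle and 131.7 with the combined treatment (log2 fold change 0.36), FOXM1 at 27.8 and 32.9 (0.23), and the DNA-binding subunit LIN54 at 7.54 and 10.4 (0.42). LIN9, LIN52 and RBBP4 had log2 fold changes of -0.021, 0.12 and -0.091, and LIN37, the subunit not tested, had a mean of 0.311 FPKM.

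For E2F6 the partners in PRC1.6 and the germ-cell genes it is known to silence were set beside it. Of 12 partner genes 11 were tested, and none was past the threshold in the combined treatment against vehicle. Of all tested genes 5.01% were past it upward and 1.51% downward, so this count of 0 carries little weight. By the interval 3 partner genes lay above and 4 below 0, beside 42.7% and 20.8% of all tested genes. The median log2 fold change of the partner genes was 0.029 beside 0.13 over all tested genes. HDAC2, a deacetylase, was lowest at -0.37 (19.4 FPKM with vehicle, 14.8 with the combined treatment), and PCGF6, the subunit that defines the complex, was highest at 0.20 (11.4 and 13.3 FPKM). CBX3 was at -0.22 and YAF2 at 0.18. Of 7 germ-cell genes analysed, 1 was tested, the tubulin gene TUBA3D, at 3.29 FPKM with vehicle, 2.67 with histidine, 2.11 with 6-MP and 2.42 under the combined treatment, and its sequence is close to that of other tubulin genes, so shared reads make it uncertain. STAG3, SMC1B, DDX4, DAZL, SYCP3 and MAEL, genes of meiosis and germ cells, had a mean below 1 FPKM, the highest being STAG3 at 0.496 FPKM with vehicle and 0.967 with the combined treatment.

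Upstream of the pocket proteins, 2 kinase inhibitor genes, CDKN1A and CDKN2D, were past the threshold upward with the combined treatment. Of 16 cyclin, kinase and inhibitor genes analysed 14 were tested, and 0 were past the threshold downward, beside 5.01% upward and 1.51% downward of all tested genes. The interval lay above 0 for 8 and below 0 for 5, beside 42.7% and 20.8%, and the median log2 fold change was 0.18. The 5 below were CCNA2 (-0.51), CDK6 (-0.29), CCND3 (-0.24), CDK4 (-0.17) and SKP2 (-0.10), which encode 2 cyclins, 2 kinases and a ubiquitin ligase subunit. CDKN1A, which encodes the kinase inhibitor p21, was at 48.6 FPKM with vehicle, 42.8 with histidine, 41.4 with 6-MP and 155.0 under the combined treatment (log2 fold change 1.65 against vehicle). CDKN2D, an inhibitor of CDK4 and CDK6, was at 13.5, 18.5, 15.2 and 33.9 FPKM (1.27). CCNE2, an E-type cyclin and E2F target, was at 6.20, 5.15, 5.69 and 12.6 FPKM (0.92), and CDKN1C, which encodes p57, at 2.08, 1.69, 2.02 and 4.16 FPKM (0.74). All 4 of these genes were highest in the combined treatment, and they were named because they had the largest absolute log2 fold changes of the list.

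Of 34 G1/S targets, genes that E2F activates and many of them genes of DNA replication, all were tested. Some of them are also in the list of cyclins and kinases above. Past the threshold were 1 upward and 1 downward, beside 5.01% and 1.51% of all tested genes. The intervals lay above 0 for 15 and below 0 for 13, beside 42.7% and 20.8% of all tested genes. Their median log2 fold change was 0.053, which turned to -0.098 with the median-ratio scaling. CDT1, which loads the replicative helicase, was at 47.4 FPKM with vehicle, 49.6 with histidine, 49.2 with 6-MP and 115.1 under the combined treatment (log2 fold change 1.26), and TK1, thymidine kinase, at 81.7, 88.2, 81.4 and 141.6 FPKM (0.79). UHRF1, which brings DNA methylation to newly made DNA, was at 442.0, 435.5, 439.6 and 182.7 FPKM (-1.27). MCM2 to MCM7, which encode subunits of the replicative helicase, were each below vehicle beyond counting error (log2 fold changes from -0.68 to -0.29). They were named after their values were seen, and 15 genes of the same list lay above 0. The list was spread widely to both sides of 0.

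Of 25 G2/M targets, genes of mitosis that MuvB complexes control, all were tested, 7 were past the threshold downward and 0 upward, and the interval lay below 0 for 22 and above 0 for 0. Of all tested genes 1.51% were past the threshold downward and 20.8% lay below 0. The list was chosen with earlier results of these data known, so its counts are a description only. The median log2 fold change of the G2/M targets was -0.69, which is -0.82 relative to the median of all tested genes. CDC20, an activator of the anaphase-promoting complex, was at 156.6 FPKM with vehicle, 148.0 with histidine, 143.9 with 6-MP and 35.3 under the combined treatment (log2 fold change -2.12). The mitotic kinase genes PLK1 and AURKA had log2 fold changes of -2.11 and -1.41, and HMMR, a spindle protein gene, -1.45. With histidine or 6-MP alone the medians were -0.040 and -0.043. With histidine alone the interval lay below 0 for 8 and above 0 for 1, beside 8.70% and 12.9% of all tested genes. With 6-MP alone it lay below 0 for 9 and above 0 for 0, beside 7.91% and 9.98%. The lower side was thus not limited to the combined treatment. Most G2/M targets were lower in the same library in which E2F7, E2F8 and RB1 were higher and E2F4 was lower. MYBL2, FOXM1 and E2F1 were also higher in that library, and E2F3 and RBL1 were lower. A link between these differences was not tested.

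The same words were counted before the starts of these targets. Of 29 G1/S genes with a RefSeq window, 14 (48.3%) held an E2F word in at least 1 window, and of 20 G2/M genes, 2 (10%) did. Counted by window, the shares were 36.4% for G1/S, 7.69% for G2/M and 7.33% for all windows. TTTGAA, the core of the CHR element bound by MuvB, was in 12 of the 20 G2/M genes (60%) and in 3 of the 29 G1/S genes (10.3%). By window it was in 50% for G2/M, 6.82% for G1/S and 13.3% of all windows. Over the whole table, the median log2 fold change of the combined treatment against vehicle was 0.10 for the 1269 tested genes with an E2F word, 0.12 for the 101 with at least 2, 0.11 for the 976 with TTTGAA, and 0.11 for all 8558 with a window. Past the threshold downward were 0.946% of those with an E2F word, 1.13% of those with TTTGAA, 1.82% of the 165 with both, and 0.724% of all with a window. Past it upward were 2.68% of those with an E2F word and 3.45% of all with a window. These shares were not tested against each other.

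E2F1 is known to activate genes of apoptosis, and 7 of the 8 genes of that list were tested, with TP73 at a mean below 1 FPKM. In the combined treatment 2 were past the threshold upward, the interval lay above 0 for all 7 against vehicle, and the median log2 fold change was 0.60. Of all tested genes 5.01% were past the threshold upward and 42.7% lay above 0. The list was chosen with earlier results of these data known, so its counts are a description only. BBC3, which encodes the BH3 protein PUMA, was at 2.06 FPKM with vehicle, 2.21 with histidine, 2.82 with 6-MP and 15.2 under the combined treatment (7.36 times vehicle). PMAIP1, which encodes NOXA, was at 19.5, 19.7, 21.1 and 45.2 FPKM (2.32 times vehicle). APAF1, BCL2L11 and PPP1R13B were 1.17 to 1.68 times vehicle. CDKN1A, BBC3 and PMAIP1 are also known targets of p53, and the activators cannot be told apart from these libraries.

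**Figure D4:**
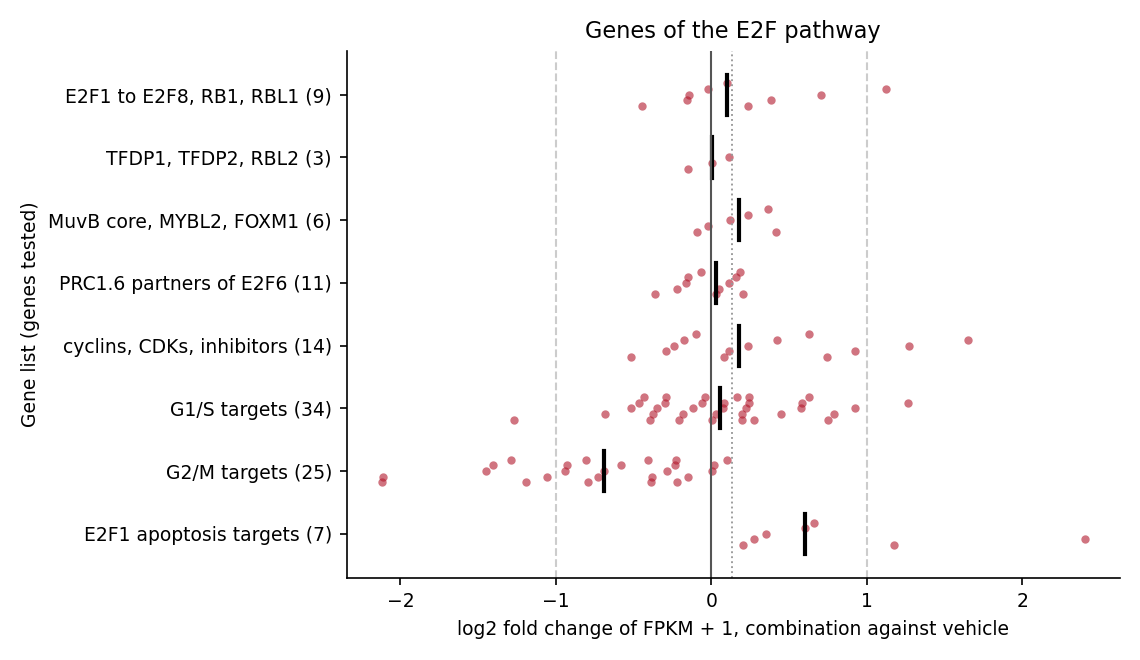
Log2 fold change of FPKM + 1 for the combined treatment against vehicle (x axis) of every tested gene in 8 lists (y axis, number of genes tested in brackets). Points are genes, black bars are list medians, the dotted line is the median of all tested genes (0.13) and dashed lines mark the threshold. The G2/M targets lie to the left with a median of -0.69, and the G1/S targets spread to both sides around 0.053.

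The genes nearest to E2F1 and E2F6 in pattern were sought among 4374 protein-coding genes with a mean of at least 10 FPKM, by the root mean square difference of centred log2(FPKM + 1) over the 4 libraries. For E2F1 they were RASGRP2 (32.8, 36.4, 31.0 and 39.1 FPKM in the order vehicle, histidine, 6-MP, combined treatment), NFX1 and ARHGAP1, at distances of 0.015, 0.015 and 0.018. For E2F6 they included YLPM1 (11.2, 11.6, 12.0 and 12.0 FPKM) and CHAMP1, at distances of 0.0065 and 0.010. With 4 libraries many genes can come this close, and the likeness is a description.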

How the data were processed

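Gene expression was measured by RNA-seq in 4 libraries of Reh-6-MPR cells, 1 for each treatment, with treatments taken from the sample labels. The libraries were poly(A) and stranded per the labels, and the authors deposited FPKM values per gene. The submitters' processing notes name Trimmomatic, HISAT2, Cufflinks, HTSeq and the builds hg38 and GRCh38, without versions or roles. FPKM depends on the library total, so a shift of many genes moves all others. The authors used DESeq2, which needs replicates and was left out here.

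The members and all 14 gene lists were chosen with earlier results of these data known. FPKM steps gave whole reads for all 29833 genes, within 0.001 of a read. For 1696 genes the shortest fitting length was multiplied by at most 6 to come within 5% of the GENCODE 29 length. The recovered reads made up 99.8% of the totals, which were 14316493 (vehicle), 15486376 (histidine), 15342296 (6-MP) and 12899122 (combined treatment). Fold changes used log2(FPKM + 1) where the mean FPKM reached 1. Intervals were exact Clopper-Pearson at 95%, those of differences of ratios by the delta method. Named were all members, every gene of lists of up to 8 genes, up to 4 genes of longer lists by absolute log2 fold change of the combined treatment against vehicle, any gene at 0 that is counted, and the 3 genes nearest in pattern to E2F1 and E2F6. CD14, LYZ, CCNA2, CDK6, CCND3, CDK4, SKP2, MCM2 to MCM7, STAG3, SMC1B, DDX4, DAZL, SYCP3 and MAEL fall outside this rule and were named after their values were seen. Some genes that the rule names are not reported here. Alternatives were a pseudocount of 0.1, median-ratio and same-total scaling, no filter, a mean FPKM of at least 5, a threshold of 0.5 and protein-coding genes only. No RefSeq promoter was matched for E2F5 and E2F8. The recovery of totals and reads, the intervals of the read ratio and the fold threshold were tested on simulated data. The other steps were not. All steps ran on scipy 1.17.1, pandas 2.3.3, numpy 2.4.6 and matplotlib 3.10.9 under Python 3.11.15.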

Additional observations from a re-analysis of the deposited data

Results flagged for a closer look

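In 8 of the 10 genes the difference made by 1 agent had the opposite direction with and without the other agent, on the log2(FPKM + 1) scale. The share of all tested genes that turned in this way was not computed, so the count is not read as a trait of the family. The turns were not tested, since each treatment has 1 library. Departures from the sum of the single differences are given in brackets. For 6-MP the direction turned in E2F7 (departure 1.14), E2F8 (0.67) and E2F1 (0.19), each lower with 6-MP alone than with vehicle and higher with the combined treatment than with histidine. For histidine it turned in E2F4 (-0.46) and E2F6 (-0.047). For both agents it turned in RB1 (0.70), E2F2 (-0.37) and E2F5 (-0.16). Only in RB1 did a difference of a single agent that turned, that of histidine, lie outside the counting error. The departures of E2F5 and E2F6 lay within it, and that of E2F2 rests on 10 to 34 reads. The number depends on the scaling and was 7 with either of the other scalings. With the median-ratio scaling E2F1 no longer turned, since it was at -0.0088 with the combined treatment against histidine and had a departure of 0.068, and E2F6 turned for 6-MP as well. With the same-total scaling E2F6 no longer turned, at 0.017 against 6-MP.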

How the results depend on the processing

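No paired analysis was possible because there is 1 library per treatment, which also leaves no replicate to omit. Median-ratio scaling divided the combined treatment by a factor 0.12 above 0 on the log2 scale and lowered its values. The log2 fold changes against vehicle became 0.080 for E2F1, 0.97 for E2F7 and 0.55 for E2F8, and the median of the G2/M targets -0.84. Members past the threshold became 0 against vehicle and 0 against histidine, and 1 member, RB1, then lay outside counting error with 6-MP alone. At a threshold of 0.5 the members past it were 2 against vehicle, 3 against histidine and 2 against 6-MP. The number of all tested genes past 0.5 against vehicle is given below. Those against histidine and 6-MP are not reported here, so these member counts are a description only. Of 50 log2 fold changes of members, 3 changed sign with this scaling, 1 with same-total scaling and none with the pseudocount of 0.1.

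Some list medians changed sign. With median-ratio scaling those of the combined treatment against vehicle became -0.098 for G1/S targets, -0.11 for E2F1 to E2F3, -0.14 for DP partners with RBL2 and -0.13 for PRC1.6 partners. Against histidine they became -0.12 for E2F1 to E2F3 and -0.083 for PRC1.6 partners, and against 6-MP -0.052, -0.070 and, for G1/S targets, -0.037. With histidine alone this scaling gave -0.012 for PRC1.6 partners and -0.0061 for apoptosis targets. Without a filter, which adds E2F2, E2F1 to E2F3 had -0.12 against vehicle, -0.11 against histidine and -0.12 against 6-MP, PRC1.6 partners -0.0033 with histidine alone, and germ-cell genes, of which 7 then counted in place of 1, 0.026 with 6-MP alone beside -0.46 and 0.031 with the combined treatment beside -0.33. At a mean FPKM of at least 5, PRC1.6 partners had -0.0033 with histidine alone and -0.018 with the combined treatment, upstream genes 0.019 with histidine alone, and E2F4 and E2F5, of which E2F4 was left, -0.042 with 6-MP alone. Same-total scaling gave G1/S targets 0.011 with histidine alone and 0.012 for the combined treatment against histidine.

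The genes past the threshold over the whole table ran from 303 at a mean FPKM of at least 5 to 3451 at a threshold of 0.5 against vehicle, beside 832. The 3451 are out of the 12750 tested genes, so the count of members past 0.5 against vehicle carries little weight. Median-ratio scaling split them 410 higher and 245 lower against histidine, beside 529 and 178, and 448 and 222 against 6-MP, beside 614 and 153. Beyond what each alternative's construction gives, the cause was not tested. Depth limits E2F2 and E2F5, with at most 34 and 200 reads.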

Other observations

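B-lineage markers, which check the cell type, moved to both sides in the combined treatment. Of 9 genes tested none was past the threshold against vehicle, beside 5.01% upward and 1.51% downward of all tested genes. The interval lay above 0 for 5 and below 0 for 4, beside 42.7% and 20.8% of all tested genes, and the median log2 fold change was 0.065. MME, which encodes CD10, was at 27.7 FPKM with vehicle, 32.0 with histidine, 28.4 with 6-MP and 46.9 under the combined treatment. CD79A, a chain of the B-cell receptor complex, was at 246.1, 255.6, 253.5 and 333.4 FPKM. PAX5, a transcription factor of B-cell identity, was lower, at 72.3, 69.4, 74.4 and 55.9 FPKM.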
